A study of Homo sapiens with 6 samples.

Results

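Epithelial cells hold together through tight junctions, adherens junctions and desmosomes, and their keratin filaments are anchored at the desmosomes. The 44 genes described here encode components of these junctions, the cell polarity proteins that position them, simple epithelial keratins, regulators of epithelial splicing and transcription, and factors of the epithelial-mesenchymal transition (EMT), the programme in which cells give up junctions and take on a mesenchymal state. They were chosen by gene symbol: a probe set was taken where the platform annotation gave exactly 1 symbol and that symbol was on the list. This found 41 of the 44 genes on 95 probe sets, of 19775 genes on 54613 probe sets in all. CTNND1, F11R and ESRP2 were not analysed here. A filter on weak signal, described with the processing, kept 79 probe sets of 36 genes. These 36 were tested, and 5 (CLDN2, CLDN4, CLDN7, TWIST1 and ZEB2) did not pass the filter.

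The cells were Hep3B, an established human hepatocellular carcinoma line. The miR-17 TuD group (3 arrays) stably expressed a tough decoy for miR-17, an RNA whose exposed binding sites sequester a microRNA, and the NC TuD group (3 arrays) the control decoy labelled NC. Both lines had been transduced with lentiviral particles at a multiplicity of infection of 5 in polybrene for 48 hours and selected with puromycin, and each was pooled from resistant colonies after 2 weeks, so each group rests on 1 pooled line. The labels also carry a code, PLUSDOX in the miR-17 TuD group and NODOX in the NC TuD group, which they leave unexplained and which cannot be told apart from the decoy. In both groups the code also holds 72HR, likewise unexplained. Whether the arrays of a group came from separate cultures is not said, so the p-values cover only how much these arrays vary, and that variation may be technical.

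MicroRNAs of the miR-17 family guide Argonaute proteins to messenger RNAs through the seed, bases 2 to 8 of the mature strand, and lower the level of the mRNAs they bind. Mature sequences of 6 named family genes, picked for carrying the seed of miR-17-5p, are shown to place the microRNA named by the decoy. Other microRNAs with this seed were not listed. Capitals mark the seed, and the sequences are those of RefSeq on GRCh38.p14.
hsa-miR-17-5p: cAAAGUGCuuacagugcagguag
hsa-miR-20a-5p: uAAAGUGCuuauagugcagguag
hsa-miR-106a-5p: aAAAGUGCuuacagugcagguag
hsa-miR-20b-5p: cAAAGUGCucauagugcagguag
hsa-miR-93-5p: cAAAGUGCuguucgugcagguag
hsa-miR-106b-5p: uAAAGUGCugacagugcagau
All 6 carry the same seed, which follows from how they were picked. No 3′ UTR sequence was used here, so whether a junction gene holds a site for this seed was not examined.

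Some junction genes were slightly lower in the miR-17 TuD cells, while no keratin, no EMT factor and no polarity gene passed the test. Of the 36 tested genes, 6 fell and none rose (limma, Benjamini-Hochberg adjusted p under 0.05 over 13949 genes). The fallen genes were the tight junction genes OCLN, TJP1 and CLDN12, the adherens junction gene CDH1 and the desmosome genes PKP2 and DSC2, with decreases between 1.11-fold and 1.27-fold. Over all genes tested, 4.60% fell and 6.78% rose, against 16.7% and 0% of the members. All genes tested include many that lie near the lowest value of the arrays, where changes are hidden. With a filter at the 60th percentile of the mean level, 7 of 35 members fell and 0 rose. Of 10773 genes in that fit, 926 fell and 1178 rose. Counted without adjustment at p under 0.05, 14 members were lower and 3 were higher (38.9% and 8.33%), beside 12.3% and 15.5% of all genes. In a bulk sample of cells, fewer cells of a kind and less RNA per cell cannot be told apart.

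Counted by overlap alone, 14 of the 36 members had all 3 miR-17 TuD values below all 3 NC TuD values, and 5 had all 3 above. That is 38.9% and 13.9% of the members, beside 14.7% and 18.3% of all genes tested. The median difference over the members was -0.057 on the log2 scale (miR-17 TuD minus NC TuD, as for every difference below), and over all genes it was 0.00056. Array by array, the member median was uneven. Against the NC TuD mean it was -0.044, -0.071 and -0.0069 for miR-17 TuD replicates 1, 2 and 3. Each NC TuD replicate against the mean of the other NC TuD arrays gave -0.0084, 0.00062 and 0.0031. Negative differences were seen for 9 of 10 tight junction genes and 6 of 8 desmosome genes, whereas all 4 keratins had positive ones. Over all genes tested, 44.3% had a negative difference. The class medians were -0.13 for tight junctions, -0.12 for desmosomes, -0.033 for adherens junctions, 0.061 for the 3 polarity genes, 0.075 for keratins and 0.0025 for the 4 EMT genes tested.

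**Figure D1:**
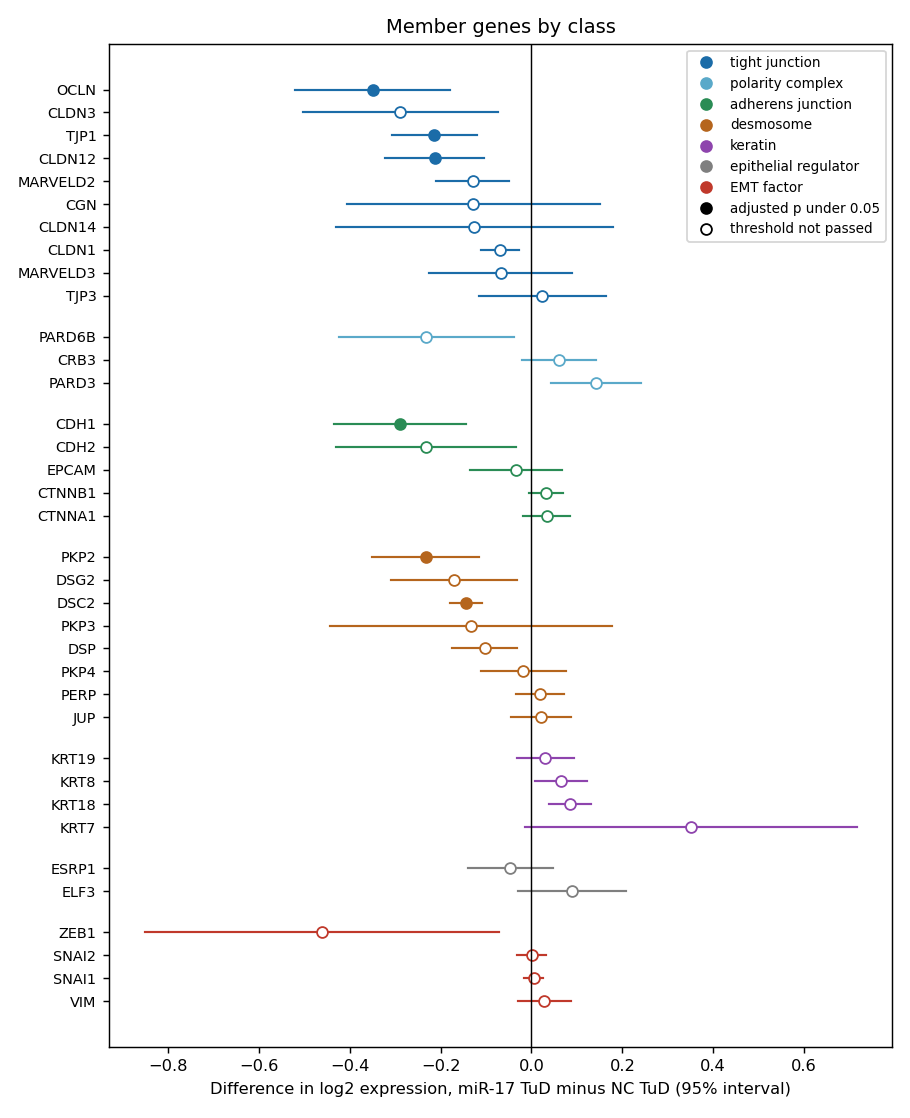
Difference in log2 expression (miR-17 TuD minus NC TuD, horizontal axis) of the 36 tested genes, grouped by class, with the 95% interval from limma. Filled points passed an adjusted p of 0.05, and all 6 of them, from OCLN at -0.35 to DSC2 at -0.14, lie left of 0 among the junction classes.

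Tight junctions seal the space between neighbouring cells near their apical side, with claudins and the MARVEL proteins occludin and tricellulin in the membrane and the zonula occludens scaffolds beneath it. OCLN, which encodes occludin, had the largest decrease among the genes that passed. Its representative probe set stood at 11.87, 11.90 and 11.79 on the miR-17 TuD arrays, against 12.10, 12.32 and 12.18 on the NC TuD arrays. Every miR-17 TuD value lay below every NC TuD value. The means were 11.85 ± 0.056 and 12.20 ± 0.11 (SD, n = 3 each), a 1.27-fold decrease (log2 difference -0.35, SE 0.065, adjusted p = 0.0400 in limma).

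Occludin was measured by 4 probe sets, and the group mean was lower in miR-17 TuD cells on each. At the level of single probe sets, 209925_at read 10.69, 10.70 and 10.68 in miR-17 TuD cells, against 10.95, 11.03 and 11.002 in NC TuD cells (difference -0.30, adjusted p = 0.0124 in limma over 32768 probe sets). Another, 231022_at, read 8.59, 8.62 and 8.54 against 8.98, 9.10 and 8.97 (difference -0.44, adjusted p = 0.0192). The groups were apart on both of these probe sets. The representative probe set, 227492_at, stood just outside the threshold in the probe set fit (adjusted p = 0.0577), and the weakest, 235937_at, differed by -0.24 with overlapping groups (adjusted p = 0.294).

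TJP1, which encodes the scaffold ZO-1 that links occludin and claudins to actin, read 12.56, 12.57 and 12.49 in miR-17 TuD cells, against 12.71, 12.81 and 12.74 in NC TuD cells. The groups did not overlap, and the 1.16-fold decrease passed (12.54 ± 0.043 and 12.75 ± 0.050, difference -0.21, SE 0.036, adjusted p = 0.0310 in limma). Its other probe set, 214168_s_at, had overlapping groups and a smaller difference of -0.076.

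CLDN12 encodes claudin-12, a member of the claudin family of paracellular strand proteins. Its single probe set read 9.35, 9.43 and 9.30 in miR-17 TuD cells, against 9.59, 9.61 and 9.52 in NC TuD cells, with no overlap (difference -0.21, SE 0.042, 1.16-fold lower, adjusted p = 0.0440 in limma).

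Of the remaining tight junction genes, 3 more had groups that did not overlap at their representative probe sets, without passing the threshold. CLDN3, a barrier-forming claudin, averaged 7.31 ± 0.11 in miR-17 TuD cells and 7.59 ± 0.11 in NC TuD cells (difference -0.29, adjusted p = 0.0995). MARVELD2, which encodes tricellulin, the protein of three-cell contacts, averaged 12.28 ± 0.032 and 12.41 ± 0.046 (difference -0.13, adjusted p = 0.0660). CLDN1, a core barrier claudin, averaged 14.90 ± 0.018 and 14.96 ± 0.021 (difference -0.069, adjusted p = 0.0641). On the other probe set of each gene the groups overlapped for CLDN3 (-0.19) and MARVELD2 (-0.057) and did not for CLDN1 (-0.095). The scaffold gene CGN (cingulin) at -0.13, CLDN14 at -0.13 and MARVELD3 at -0.068 had overlapping groups, and so did TJP3, which encodes ZO-3, at 0.024. These values rest on few arrays: leaving out 1 array gave -0.23 to -0.033 for CGN, -0.20 to -0.0078 for CLDN14 and -0.13 to -0.031 for MARVELD3, with the value nearest 0 without miR-17 TuD replicate 1 for CGN and without replicate 2 for the other two. The 95% interval of the TJP3 difference ran from -0.12 to 0.16, which includes a change of the size seen for CLDN1.

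The claudin genes CLDN4 and CLDN7 were listed at the lowest value of the arrays, 2.12, on every array and every probe set, and CLDN2 at 2.13 on all 6. No difference could be measured for them.

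Adherens junctions join the actin belts of neighbouring cells through cadherins, which bind p120 and beta-catenin, and alpha-catenin connects that complex to actin. CDH1, which encodes E-cadherin, the main epithelial cadherin, fell. Its values were 12.60, 12.67 and 12.77 in miR-17 TuD cells, against 12.91, 12.96 and 13.02 in NC TuD cells. The groups did not overlap (12.68 ± 0.088 and 12.97 ± 0.055, difference -0.29, SE 0.056, 1.22-fold lower, adjusted p = 0.0421 in limma). A second CDH1 probe set, 201130_s_at, gave a larger difference of -0.44, from 9.34, 9.41 and 9.58 in miR-17 TuD cells and 9.83, 9.90 and 9.91 in NC TuD cells (adjusted p = 0.0436 over probe sets, where the first probe set gave 0.0605).

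CDH2, which encodes N-cadherin, the cadherin that is gained when cells undergo EMT and that hepatocytes also carry, did not move opposite to E-cadherin. It read 12.03, 12.24 and 12.29 in miR-17 TuD cells, against 12.37, 12.45 and 12.43 in NC TuD cells. The groups did not overlap, but the miR-17 TuD group had an SD of 0.14, against 0.041 in the NC TuD group, and the difference of -0.23 did not pass (SE 0.076, adjusted p = 0.134 in limma). Its second probe set differed by -0.22, also without overlap (adjusted p = 0.0785 over probe sets).

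The catenin genes were nearly level at their representative probe sets. CTNNA1, alpha-catenin, differed by 0.033 (95% interval -0.019 to 0.085) and CTNNB1, beta-catenin, by 0.031 (-0.0063 to 0.069, with all 3 miR-17 TuD values above the NC TuD values). The probe sets of beta-catenin disagreed. Probe set 1554411_at fell, with 9.84, 9.79 and 9.85 in miR-17 TuD cells, against 10.06, 10.08 and 9.99 in NC TuD cells (difference -0.22, adjusted p = 0.0346 over probe sets), while 201533_at and 223679_at differed by 0.031 and 0.034 and did not pass. EPCAM, an epithelial adhesion molecule outside the cadherin complex, differed by -0.033 with overlapping groups.

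**Figure D2:**
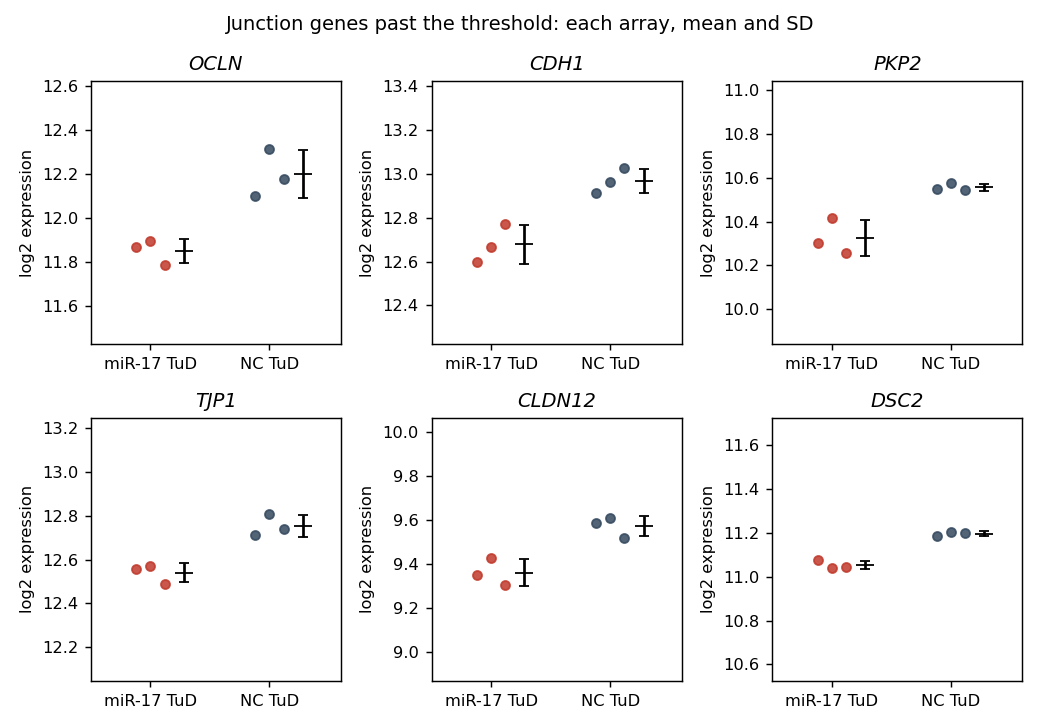
Log2 expression on each array (points), with the group mean and SD (bars, n = 3), for the 6 genes that fell; every panel spans the same range of log2 values. In each panel the 3 miR-17 TuD points lie below the 3 NC TuD points, with the widest gap for OCLN (11.85 against 12.20) and the tightest groups for DSC2.

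Desmosomes are the spot junctions to which keratin filaments attach: desmogleins and desmocollins span the membrane, and plakoglobin, plakophilins and desmoplakin tie them to keratin. DSC2, which encodes desmocollin-2, had the lowest adjusted p of all members and the smallest decrease among the 6. It read 11.07, 11.04 and 11.04 in miR-17 TuD cells, against 11.19, 11.20 and 11.20 in NC TuD cells. The groups did not overlap, and both were tight (SD 0.019 and 0.010). The 1.11-fold decrease passed (-0.14, SE 0.013, adjusted p = 0.00945 in limma). Its weakest probe set kept by the filter, 204750_s_at, showed a larger difference of -0.37 that did not pass (adjusted p = 0.0799 over probe sets). Another, 204751_x_at, differed by -0.12 with overlapping groups (adjusted p = 0.346 in limma over probe sets).

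PKP2, which encodes plakophilin-2, the plakophilin of simple epithelia and heart, read 10.30, 10.42 and 10.26 in miR-17 TuD cells, against 10.55, 10.58 and 10.55 in NC TuD cells. The groups did not overlap, and the 1.17-fold decrease passed (difference -0.23, SE 0.045, adjusted p = 0.0428 in limma). On its second probe set, 214154_s_at, the difference was -0.29 and the groups overlapped.

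The partner genes of these 2 did not pass. DSG2, the desmoglein of simple epithelia, averaged 12.13 ± 0.058 in miR-17 TuD cells and 12.30 ± 0.080 in NC TuD cells without overlap (difference -0.17, adjusted p = 0.118 in limma), and both of its probe sets were lower. DSP, desmoplakin, averaged 14.23 ± 0.048 and 14.34 ± 0.015, again without overlap (difference -0.10, adjusted p = 0.0876). PKP3 at -0.13, PKP4 at -0.018, PERP, a p53-inducible desmosomal membrane protein, at 0.018 and JUP, plakoglobin, at 0.021 had overlapping groups. For JUP the 95% interval was -0.044 to 0.086, and for PKP3 leaving out 1 array gave -0.24 to -0.030 (without miR-17 TuD replicates 1 and 2).

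The polarity genes did not move one way. PARD6B, a subunit of the Par complex that positions tight junctions, averaged 9.25 ± 0.14 in miR-17 TuD cells and 9.48 ± 0.022 in NC TuD cells (difference -0.23, adjusted p = 0.126 in limma). PARD3, the scaffold of that complex, averaged 10.53 ± 0.061 and 10.38 ± 0.034 (difference 0.14, adjusted p = 0.0871), and CRB3, the epithelial Crumbs protein, differed by 0.061. All 3 had groups that did not overlap, and none passed. The 4 PARD3 probe sets were split, with differences of 0.14 and 0.17 on one pair and -0.018 and -0.035 on the other.

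**Figure D3:**
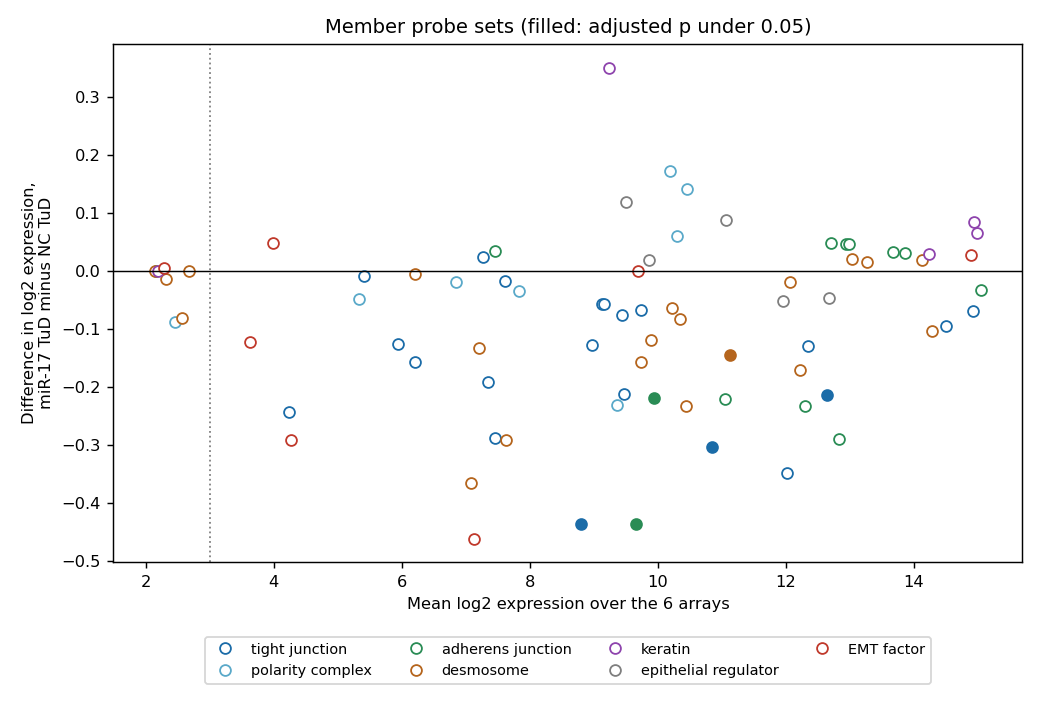
Difference in log2 expression (miR-17 TuD minus NC TuD) against the mean level over the 6 arrays for the 79 member probe sets kept by the filter, coloured by class; filled points passed, and the dotted line marks a level of 3. The 6 filled points (OCLN on 2 probe sets, and CDH1, CTNNB1, TJP1 and DSC2 on 1 each) all lie below 0, and the 8 probe sets left of the line lie near the lowest value of the arrays.

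At the level of probe sets, 6 of the 79 fell and none rose, which is 7.59% beside 2.48% of all 32768 probe sets that fell and 3.35% that rose. Without adjustment, 24 were lower and 4 higher at p under 0.05 (30.4% and 5.06%), beside 10.8% and 11.3% of all probe sets. Among 23 genes with at least 2 probe sets above a level of 3, all probe sets were negative in 15 genes, all positive in 2 (CTNNA1 and ELF3) and mixed in 6 (CTNNB1, PARD3, PERP, TJP3, VIM and ZEB1).

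Keratins 8 and 18 form the filament pair of hepatocytes, and keratins 7 and 19 are typical of bile duct cells and of many carcinomas. KRT8 read 15.05, 14.99 and 15.01 in miR-17 TuD cells, against 14.96, 14.92 and 14.97 in NC TuD cells, and KRT18 read 15.01, 14.96 and 15.00 against 14.92, 14.89 and 14.91. The groups did not overlap for either, yet the differences were 4.60% and 6.03% and neither passed (0.065 with adjusted p = 0.141, and 0.084 with adjusted p = 0.0510 in limma). Both were measured by an x_at probe set, which sequences of related genes and pseudogenes can share.

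KRT19 read 14.26, 14.24 and 14.25 in miR-17 TuD cells, against 14.25, 14.17 and 14.24 in NC TuD cells, and the groups overlapped (difference 0.030, 95% interval -0.033 to 0.093). KRT7 had the largest positive difference of any member, 0.35, but its groups overlapped, at 9.45, 9.29 and 9.48 in miR-17 TuD cells and 9.29, 8.81 and 9.07 in NC TuD cells (adjusted p = 0.193). Of the 4 KRT7 probe sets, 3 were listed at the lowest value on all arrays.

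ESRP1, a splicing regulator that maintains epithelial isoforms, averaged 12.65 ± 0.055 in miR-17 TuD cells and 12.69 ± 0.037 in NC TuD cells (difference -0.046, adjusted p = 0.469 in limma). ELF3, an epithelial ETS transcription factor, averaged 11.11 ± 0.050 and 11.02 ± 0.068 (difference 0.088, adjusted p = 0.289). The groups of both genes overlapped.

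Among EMT factors, none rose. VIM encodes vimentin, the mesenchymal intermediate filament protein, and read 14.92, 14.88 and 14.90 in miR-17 TuD cells, against 14.91, 14.87 and 14.84 in NC TuD cells. These groups overlapped, and the 95% interval of the difference of 0.028 ran from -0.030 to 0.086. SNAI2, the E-box repressor Slug, averaged 9.70 ± 0.014 in miR-17 TuD cells and 9.69 ± 0.014 in NC TuD cells (difference 0.00023, 95% interval -0.032 to 0.032). SNAI1, the related repressor Snail, stood between 2.28 and 2.30 on all 6 arrays, close to the lowest value, where changes cannot be seen.

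ZEB1, an E-box repressor of E-cadherin, had the largest difference of any member, -0.46, and it did not pass. Its representative probe set read 7.11, 7.01 and 6.59 in miR-17 TuD cells, against 7.37, 7.40 and 7.32 in NC TuD cells. All miR-17 TuD values were lower, with replicate 3 the lowest (SD 0.28 against 0.039, SE 0.15, adjusted p = 0.130 in limma), and without that array the difference of -0.30 passed (adjusted p = 0.0414). The other 2 ZEB1 probe sets kept by the filter averaged 3.63 and 3.98 over the 6 arrays, with overlapping groups. ZEB2, on 5 probe sets, and TWIST1, on 1, were listed at the lowest value on every array.

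**Figure D4:**
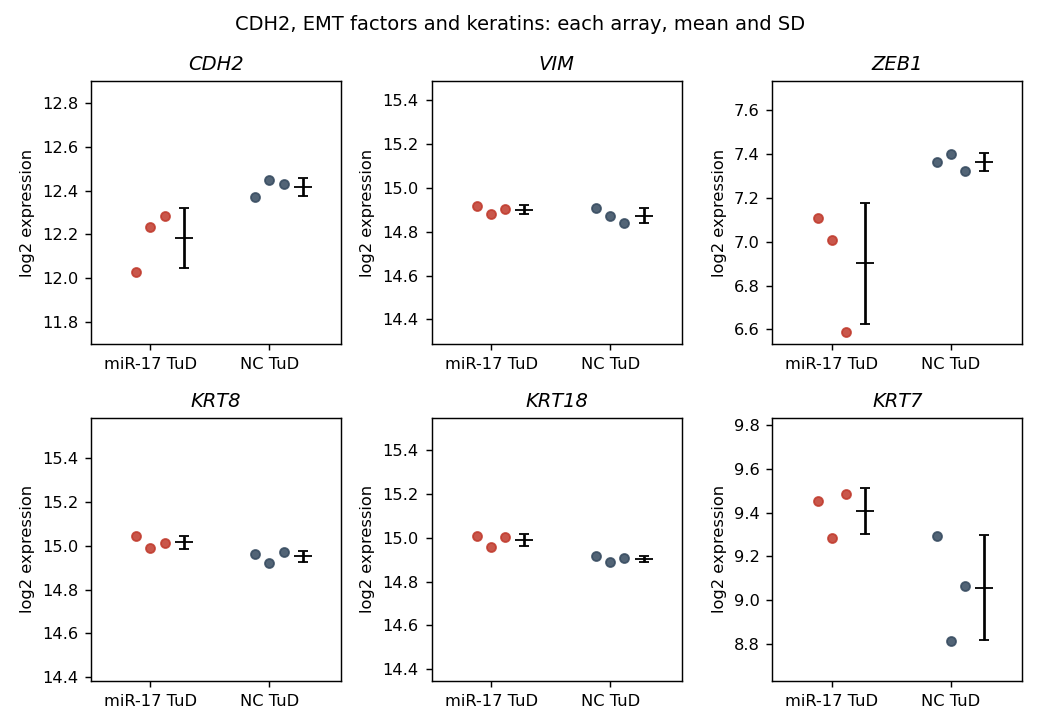
Log2 expression on each array (points), with the group mean and SD (bars, n = 3), for CDH2, VIM, ZEB1, KRT8, KRT18 and KRT7, none of which passed; every panel spans the same range of log2 values. The VIM points overlap between groups, while KRT8 and KRT18 are slightly higher in miR-17 TuD cells without overlap (differences 0.065 and 0.084). The ZEB1 points of the miR-17 TuD cells are spread from 6.59 to 7.11.

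The E-box letters CAGGTG or CACCTG, the same site read on either strand, are bound by ZEB and Snail family repressors. They were searched in the 250 bases before the start of each gene in RefSeq on GRCh38.p14. Of the 36 tested members, 23 had such a window and 11 of these held the letters, 3 of the 4 fallen genes with a window among them (OCLN, TJP1 and DSC2, but not CLDN12). Over all 27305 genes with a window, 20.6% held them; a gene with several starts has several windows. CDH1 and PKP2 had no entry. The 60 bases around the match are shown for the fallen genes, with the E-box in capitals, to give the site its context; a match is a description of the letters and not of binding.
OCLN, chr5:69492487-69492546, plus strand, first start: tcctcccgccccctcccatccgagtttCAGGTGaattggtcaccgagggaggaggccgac
OCLN, chr5:69492630-69492689, plus strand, second start: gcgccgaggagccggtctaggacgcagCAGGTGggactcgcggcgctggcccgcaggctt
TJP1, chr15:29969105-29969164, minus strand: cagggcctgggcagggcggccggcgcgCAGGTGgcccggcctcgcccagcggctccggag
DSC2, chr18:31102545-31102604, minus strand: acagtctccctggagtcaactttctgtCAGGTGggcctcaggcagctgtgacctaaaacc
Members that did not pass held the letters too, among them DSP, DSG2, JUP, CRB3, TJP3, CLDN14, ELF3 and ZEB1 itself.

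Other genes of the same structures were counted from 7 lists that share no gene with the members. Of 83 tested, 6 rose and 4 fell (7.23% and 4.82%, beside 6.78% and 4.60% of all genes), with a median difference of 0.0038. Groups did not overlap and were lower for 19 genes (22.9%) and higher for 13 (15.7%), beside 14.7% and 18.3% of all genes. Without adjustment, at p under 0.05 in limma, 21.7% were lower and 16.9% higher, beside 12.3% and 15.5% of all genes. Among 15 other tight junction genes, CLDN11, a claudin first known from myelin and testis, rose 1.31-fold (11.12 ± 0.095 in miR-17 TuD cells and 10.73 ± 0.10 in NC TuD cells, adjusted p = 0.0422 in limma), and CGNL1, paracingulin, fell 1.32-fold (10.24 ± 0.12 and 10.64 ± 0.076, adjusted p = 0.0431). When probe sets were averaged, the CLDN11 difference was 0.20 (adjusted p = 0.0441) and that of CGNL1 was -0.034 and did not pass. Of 15 other polarity genes, 1 passed, the Par-1 kinase gene MARK2 (0.18), which differed by 0.12 and did not pass with averaged probe sets (adjusted p = 0.0674).

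Of 15 other adherens junction genes, the cadherin CDH6 (-0.30) and the delta-catenin CTNND2 (-0.20) fell and the alpha-catenin CTNNA2 (0.26) rose. With averaged probe sets CDH6 differed by -0.16 and did not pass (adjusted p = 0.122). Of 7 other keratins, KRT80 (0.32, adjusted p = 0.0151) and KRT23 (0.18, adjusted p = 0.0256) rose and none fell. None of 4 other desmosome and plakin genes or of 11 other epithelial regulators passed, with 1 and 2 of them at an unadjusted p under 0.05. The 2 regulators, both lower without overlap, were ELF5 (-0.71, adjusted p = 0.0545 in limma) and GRHL1 (-0.30, adjusted p = 0.152). Of the 11 regulators, 4 had negative and 7 positive differences.

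Of 16 other mesenchymal genes, LOX, a collagen crosslinking enzyme, had the largest change on these lists. It read 9.60, 9.43 and 9.54 in miR-17 TuD cells, against 10.47, 10.61 and 10.49 in NC TuD cells, a 2.00-fold decrease (95% interval of the log2 difference -1.16 to -0.84, adjusted p = 0.00619 in limma). Its relative LOXL2 rose 1.23-fold (0.29, adjusted p = 0.0254), or by 0.15 with averaged probe sets (adjusted p = 0.0401). FN1, fibronectin, differed by -0.11 and TAGLN by 0.34, each without overlap, and neither passed (adjusted p = 0.125 and 0.106 in limma). Over the 16 genes, 5 differences were negative and 9 positive.

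**Figure D5:**
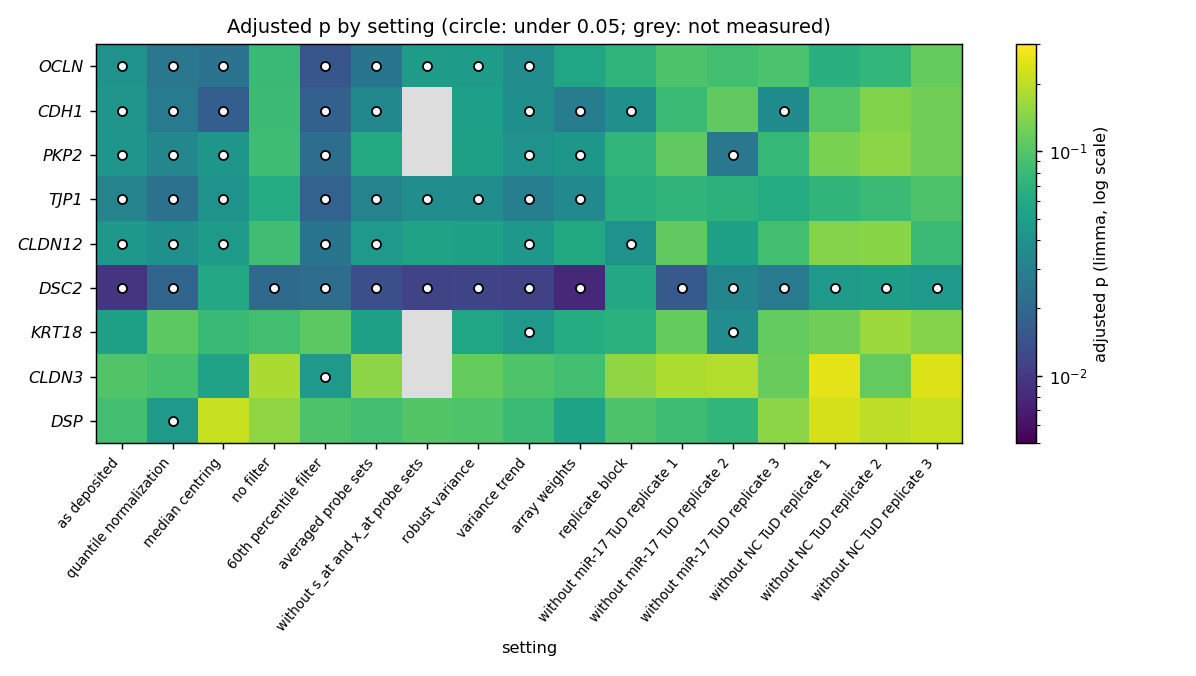
Adjusted p in limma (colour, log scale) of the 6 fallen genes and of KRT18, CLDN3 and DSP under each processing setting (columns); circles mark values under 0.05 and grey cells are genes with no probe set left. DSC2 keeps its circle in all 6 columns that leave out 1 array, whereas OCLN, TJP1 and CLDN12 lose it in each of them.

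Apart from DSC2, the calls lay close to the threshold. With any 1 array removed, in 6 fits, the DSC2 call always held (adjusted p up to 0.0486); the OCLN, TJP1 and CLDN12 calls ended in all 6 (up to 0.144), the CDH1 call in all but the fit without miR-17 TuD replicate 3, and the PKP2 call in all but the fit without miR-17 TuD replicate 2. Only 1 gene fell when miR-17 TuD replicate 1 was removed, 2 when replicate 2 was, 3 when replicate 3 was, and 1 in each fit that lacked an NC TuD replicate. KRT18 rose when miR-17 TuD replicate 2 was removed (0.10, adjusted p = 0.0371). All 6 differences stayed negative in these fits, and the difference of OCLN stayed between -0.40 and -0.29. Of the 10 genes that passed on the other lists, the LOX call held in all 6 of these fits, and each of the rest ended in at least 4.

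Markers of the line and of other cell types were read on the same arrays. ALB, albumin, the defining product of hepatocytes, read 15.97, 16.02 and 15.96 in miR-17 TuD cells, against 16.16, 16.19 and 16.23 in NC TuD cells, so the labelled cell type carried its marker. Of 9 tested hepatocyte markers 8 fell, and the log2 of their summed signal ranged from 17.43 to 17.45 in miR-17 TuD arrays and from 17.63 to 17.66 in NC TuD arrays. That sum is carried by the most abundant genes. The largest of these falls were in APOA1 (-1.31, 2.48-fold), AFP (-1.27, 2.40-fold), FGB (-1.26, 2.39-fold) and APOB (-0.75, 1.68-fold), each larger than the difference of any junction gene that fell. SERPINA1 went the other way, by 0.13 with groups that did not overlap, and did not pass (adjusted p = 0.0912 in limma). Of 6 tested fibroblast markers none passed (2 at an unadjusted p under 0.05), with a summed signal of 13.20 to 13.65 in miR-17 TuD and 13.12 to 13.16 in NC TuD arrays; COL3A1, DCN and POSTN did not pass the filter. Among 3 tested endothelial markers none passed (1 at an unadjusted p under 0.05), with 6.45 to 6.76 in miR-17 TuD and 6.35 to 6.37 in NC TuD arrays; PECAM1 read 2.43 on all arrays, and VWF and CDH5 did not pass the filter. Among 3 tested blood markers LYZ rose (0.59), with 7.26 to 7.47 in miR-17 TuD and 6.86 to 6.93 in NC TuD arrays, and PTPRC and CD3E did not pass the filter. Of 5 tested bile duct markers SOX9 fell (-0.15), with 15.48 to 15.51 in miR-17 TuD and 15.51 to 15.52 in NC TuD arrays; KRT7 and KRT19 are also on this list. Whether any of these has a part in the junction differences was not tested. Arrays of a group correlated at 0.9994 or more over probe sets.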

How the data were processed

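The authors' deposited values were used as given: 1 log2 expression value per probe set and array, from Affymetrix HG-U133 Plus 2 arrays. Per the submitters' processing notes RMA and GCRMA were named, with no version; the role of each was not given in the sources used here. These deposited log2 values have a floor at 2.12, which 34.9% to 35.4% of probe sets share on each array and which hides changes of weak genes. Array medians were 2.75 to 2.78, and no further scaling was applied. Medians this near the floor say little about the scaling of well expressed genes. Median centring over the kept probe sets gave -0.33 for OCLN and -0.046 for CLDN1, beside -0.35 and -0.069 as deposited. Over all genes, 2143 then passed, beside 1588. The number of arrays limits the precision.

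Control probe sets (62) were left out, and only probe sets with a 6-array mean above the 40th percentile (2.14) were kept, leaving 32768. Symbols came from the platform annotation, updated through Entrez identifiers to RefSeq (41037 of 41091 probe sets with 1 symbol). For each of 13949 genes the probe set of highest 6-array mean stood for the gene. The test was limma's moderated one (version 3.58.1, R 4.3.3; lmFit and eBayes, no trend), 2-sided, with p-values adjusted by Benjamini-Hochberg over all features and a threshold of 0.05. The prior degrees of freedom, which set how far the variance of a gene is drawn to that of the others, were 0.72 in the gene fit. Moderation was therefore weak, and genes with a very small SD were little protected. Intervals are 95% intervals from the same fit. The fit was also run on simulated data, with differences planted in genes above the median level. The share it recovered is not given here, so no conclusion is drawn from that run. In the probe set fit, adjustment ran over all 32768 probe sets. Summed marker signal is the log2 of the sum of unlogged values.

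All 44 genes are named whatever their values, and from each other list the 2 largest rises and falls past the threshold, with marker genes and genes outside these rules named after their values were seen. The members and lists were chosen with earlier results of these data known. Alternatives were quantile normalization, median centring, other filters, averaged probe sets, s_at and x_at probe sets left out, robust variance, a variance trend, array weights, a replicate block and leaving out each array.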

Additional observations from a re-analysis of the deposited data

How the results depend on the processing

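Under the 10 alternatives other than leaving out arrays, 6 member genes fell as deposited, against 1 with no filter, 3 with robust variance, 3 of the 24 left without s_at and x_at probe sets (where CDH1 and PKP2 were not measured) and 2 under the replicate block, and 1 (KRT18) rose with a variance trend (adjusted p = 0.0458). Leaving out 1 array gave 1 to 3 that fell and 0 to 1 that rose. Member probe sets that fell numbered 10 of 79 with quantile normalization, 12 of 65 with the 60th percentile filter and 3 of 95 with no filter. With the replicate block 0 of 79 fell in limma (23 lower and 4 higher at an unadjusted p under 0.05). Without 1 array 0 to 3 of 79 fell, the 0 without NC TuD replicate 3 (17 lower and 5 higher unadjusted). The share over all probe sets under these settings is not given here, and the counts over all genes also moved. Over all genes, 1588 passed, against 789 with no filter, 822 with the replicate block, 927 without s_at and x_at probe sets and 374 to 1243 without 1 array. Among genes that did not pass, some turned sign near 0: EPCAM (-0.068 to 0.0023 without 1 array), PKP4 (0.0040 with median centring, -0.045 to 0.011 without 1 array), SNAI2 (-0.0062 with array weights, -0.0055 to 0.0085), TJP3 (-0.0063 with array weights, -0.012 to 0.068) and PERP (-0.0046 without s_at and x_at probe sets). Averaging probe sets gave -0.13 for VIM and -0.051 for CTNNB1. Same-numbered arrays of the groups deviated together at correlations of 0.040, 0.10 and 0.11, and every array correlated best with its own number, a hint from the data only, since the labels do not say that the numbers pair samples. Of the values of single member genes under these alternatives, 497 kept direction and side of the threshold, 45 lost the call and 7 gained one; the causes were not tested. No filter ended every call but DSC2, while median centring and the replicate block ended that of DSC2 (adjusted p up to 0.0595). The array floor limits what can be seen for CLDN2, CLDN4, CLDN7, TWIST1, ZEB2 and SNAI1.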

Other observations

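Other adhesion families, grouped by symbol root after the results were seen, were read beside the 4.60% of all genes that fell and the 6.78% that rose. Of 18 tested integrin genes 2 passed (11.1%, beside 11.4% of all genes in either direction): ITGA4, the alpha-4 subunit that binds fibronectin and VCAM1, rose 1.31-fold (9.65 ± 0.079 in miR-17 TuD cells and 9.26 ± 0.023 in NC TuD cells, SD, n = 3 each, adjusted p = 0.0137 in limma), and ITGA6, the alpha-6 laminin receptor subunit, fell 1.11-fold (11.10 ± 0.016 and 11.26 ± 0.035, adjusted p = 0.0210). Of 23 protocadherin genes 1 passed (4.35%): PCDH17 fell 1.69-fold (6.93 ± 0.060 and 7.69 ± 0.084, adjusted p = 0.00722), and its call held whichever of the 6 arrays was removed, with a difference of -0.47 against -0.76 when probe sets were averaged. Of 8 laminin genes 1 passed (12.5%): LAMA5 fell 1.28-fold (10.40 ± 0.12 and 10.76 ± 0.059, adjusted p = 0.0479). Groups of 3 of the 8 laminin genes did not overlap and were lower (37.5%, beside 14.7% of all genes), LAMB1 (-0.21) and LAMB2 (-0.33) without passing. Of 11 cadherin genes 2 fell (18.2%), CDH1 and CDH6, which are described above, and 4 did not overlap and were lower (36.4%), among them CDH12 (-0.46, adjusted p = 0.0587). None of 6 gap junction genes passed in limma, with 0 at an unadjusted p under 0.05 and a median difference of 0.0038. The ITGA4, ITGA6 and LAMA5 calls ended in 3, 4 and 5 of these 6 fits.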
